A study of Mus musculus with 32 samples.

Results

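The cardiac transcription factor genes outside the Gata family were followed across 4 mouse organs by MeDIP-seq, which sequences the DNA fragments caught by an antibody to 5-methylcytosine (5mC). The members were 8 of the 27179 genes in the deposited table, taken by their symbols: Nkx2-5, Isl1, Hand1, Hand2, Tbx5, Tbx20, Mef2c and Myocd. The symbols were matched by name only, and all 8 were found and passed the filter on low values (1 CPM, reads scaled to library size, or more in 2 or more libraries), as did 25982 genes in all. The organs were heart, brain, kidney and liver, and each came either as FFPE tissue (formalin-fixed and embedded in paraffin) or flash-frozen. The sources used here do not give strain, age, sex or the number of animals. The labels list 2 samples with the 5mC antibody and 2 Input samples for each organ and preservation, but the table has 1 column for each organ and preservation, called a library below. It does not say whether a column is 1 sample or pooled samples, nor does its column name give the antibody; since it was deposited for MeDIP-seq, its columns were read as 5mC. Input was not analysed here, so copy number and read yield are part of every value.

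These 8 genes encode proteins that build the heart in the embryo, and several stay active in adult heart muscle. Nkx2-5 and Isl1 are homeodomain proteins of the early heart fields, Hand1 and Hand2 are basic helix-loop-helix proteins of the forming ventricles, Tbx5 and Tbx20 are T-box proteins of the chambers, Mef2c is a MADS-box activator of muscle genes, and Myocd (myocardin) is a coactivator that works with serum response factor. In mammals 5mC sits mainly on cytosines followed by guanine (CpG). CpG-rich starts of genes are usually free of 5mC, while the bodies of genes usually carry it. A MeDIP read count on a gene therefore depends on how many CpG the counted stretch holds as well as on how many are methylated.

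The DNA before the starts of these genes differs widely in its number of CpG. RefSeq windows (build GRCm38.p6, the assembly behind mm10) were at hand for 5 of the 8 genes, and the 250 bases before the start are printed 5′ to 3′ on the gene's strand, with each CpG in capitals. Isl1 (chr13:116309689-116309938, minus strand) is the densest of them, Tbx20 (chr9:24774304-24774553, minus strand) and Hand2 (chr8:57320733-57320982, plus strand) come next, Nkx2-5 (chr17:26841566-26841815, minus strand) is sparser, and the first of the 3 Mef2c starts (chr13:83503784-83504033, plus strand) is almost bare. The starts are those the RefSeq table gives: the Nkx2-5 window and the windows of the other 2 Mef2c starts lie inside the whole-gene span given further down, and the other windows lie at the upstream end of their gene.
Isl1: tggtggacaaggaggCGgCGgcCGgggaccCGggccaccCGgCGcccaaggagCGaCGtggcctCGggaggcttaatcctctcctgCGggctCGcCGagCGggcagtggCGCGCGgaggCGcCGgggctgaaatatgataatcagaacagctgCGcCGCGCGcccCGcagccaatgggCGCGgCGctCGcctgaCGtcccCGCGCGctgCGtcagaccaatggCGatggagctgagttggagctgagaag
Tbx20: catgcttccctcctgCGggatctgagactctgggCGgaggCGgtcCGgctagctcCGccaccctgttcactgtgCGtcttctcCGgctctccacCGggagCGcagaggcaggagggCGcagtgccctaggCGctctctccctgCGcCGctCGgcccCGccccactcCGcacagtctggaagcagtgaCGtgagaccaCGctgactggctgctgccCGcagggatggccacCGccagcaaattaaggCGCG
Hand2: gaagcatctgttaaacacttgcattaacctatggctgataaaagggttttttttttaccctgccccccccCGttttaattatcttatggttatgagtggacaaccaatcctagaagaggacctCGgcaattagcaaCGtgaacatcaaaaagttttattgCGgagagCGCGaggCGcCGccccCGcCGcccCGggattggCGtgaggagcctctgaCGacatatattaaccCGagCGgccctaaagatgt
Nkx2-5: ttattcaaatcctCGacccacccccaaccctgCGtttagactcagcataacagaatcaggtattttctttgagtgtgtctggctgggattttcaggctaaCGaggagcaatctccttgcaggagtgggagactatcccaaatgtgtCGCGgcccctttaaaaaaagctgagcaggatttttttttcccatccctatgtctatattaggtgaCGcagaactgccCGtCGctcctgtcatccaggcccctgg
Mef2c, first start: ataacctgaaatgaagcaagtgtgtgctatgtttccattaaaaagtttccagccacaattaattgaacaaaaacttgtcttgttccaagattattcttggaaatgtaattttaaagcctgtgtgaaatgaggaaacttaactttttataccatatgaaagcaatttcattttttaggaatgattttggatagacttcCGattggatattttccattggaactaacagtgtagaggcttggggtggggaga

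The Isl1 window holds 33 CpG, and 4.03% of the 32851 RefSeq windows of the same length hold as many or more. The windows of Tbx20 and Hand2 hold 22 and 15 CpG (14.8% and 27.3% of windows hold as many or more). The Nkx2-5 window holds 8 CpG (43%), and the windows before the 3 Mef2c starts hold 1, 6 and 4 CpG (92.1%, 50.4% and 62.2%). At least 1 CpG (the letters CG, which read the same on both strands) is present in 92.1% of all windows, with a median of 6. These are properties of the sequence. The sources used here do not say whether reads in these windows were counted towards a gene, and the table holds 1 value per gene, so 5mC at the start and in the body cannot be separated.

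**Figure D1:**
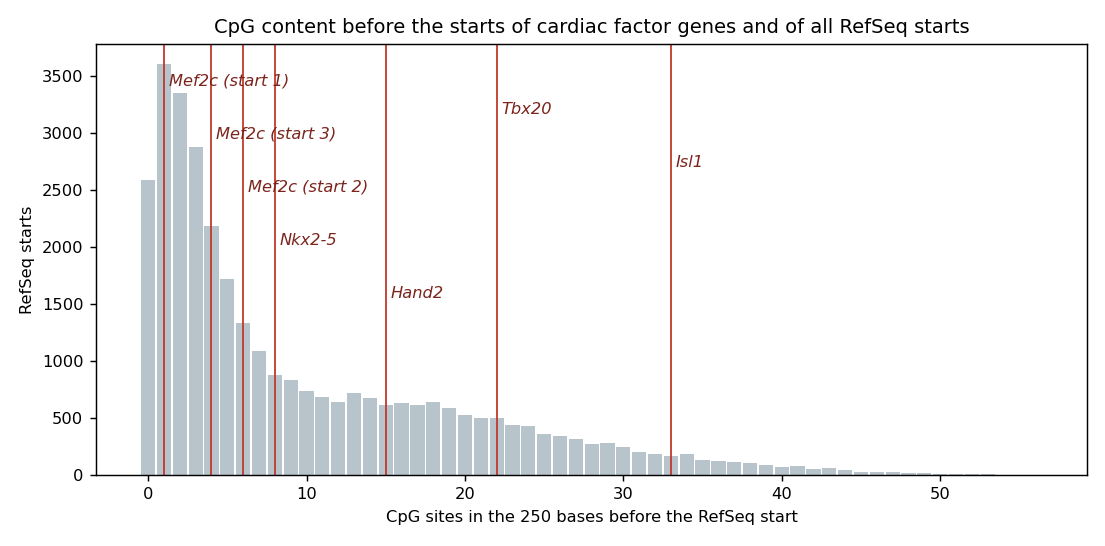
Number of CpG in the 250 bases before each RefSeq start (x axis) against the number of starts with that many (y axis, grey bars). Red lines mark the 7 starts of the 5 cardiac factor genes with an entry, from 1 CpG at the first Mef2c start to 33 CpG at Isl1.

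The libraries held 2164158 to 3699218 reads on genes, and the median gene had 36 to 63 reads. Frozen kidney stood apart, with 0 reads on 2999 genes against 880 to 2380 in the other 7 libraries and the widest spread of log2 values (SD 2.91, against 2.07 to 2.81). Genes typical of an organ's main cells were checked against the labels by their 5mC. In liver 9 of 10 hepatocyte genes were called lower than the mean of the other organs. In brain 4 of 10 neuronal genes were called lower, and in heart 7 of 33 heart muscle genes, a list that also holds some smooth muscle genes. Of all tested genes, 7.42% were called lower in liver, 12.8% in brain and 1.97% in heart. In kidney 0 of 10 tubule genes were called lower, beside 147 of all tested genes, so the tubule genes do not bear on the kidney label.

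The 8 genes fell into 3 tiers of signal. Over all 8 libraries together, Mef2c (chromosome 13, 83504017 to 83667079), Myocd (chromosome 11, 65173608 to 65269989), Tbx5 (chromosome 5, 119796514 to 119885220) and Tbx20 (chromosome 9, 24720812 to 24774303) had 2301, 2151, 2054 and 1366 reads. Hand1 (chromosome 11, 57828713 to 57832147) had 328 reads and Isl1 (chromosome 13, 116298270 to 116309688) 289. Hand2 (chromosome 8, 57320983 to 57324517) had 31 reads and Nkx2-5 (chromosome 17, 26838664 to 26844988) 20. Coordinates are those of the whole RefSeq gene. The 4 genes with most reads are also the longest, at 53492 to 163063 bases against 3435 to 11419 for the other 4. Per kilobase of gene, reads over the 8 libraries came to 95.5 on Hand1, 25.5 on Tbx20, 25.3 on Isl1, 23.2 on Tbx5, 22.3 on Myocd, 14.1 on Mef2c, 8.77 on Hand2 and 3.16 on Nkx2-5, if reads were counted over the whole gene, which the sources used here do not say. The Hand paralogs are the closest pair in length (3435 and 3535 bases), and still Hand1 had 328 reads where Hand2 had 31.

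**Figure D2:**
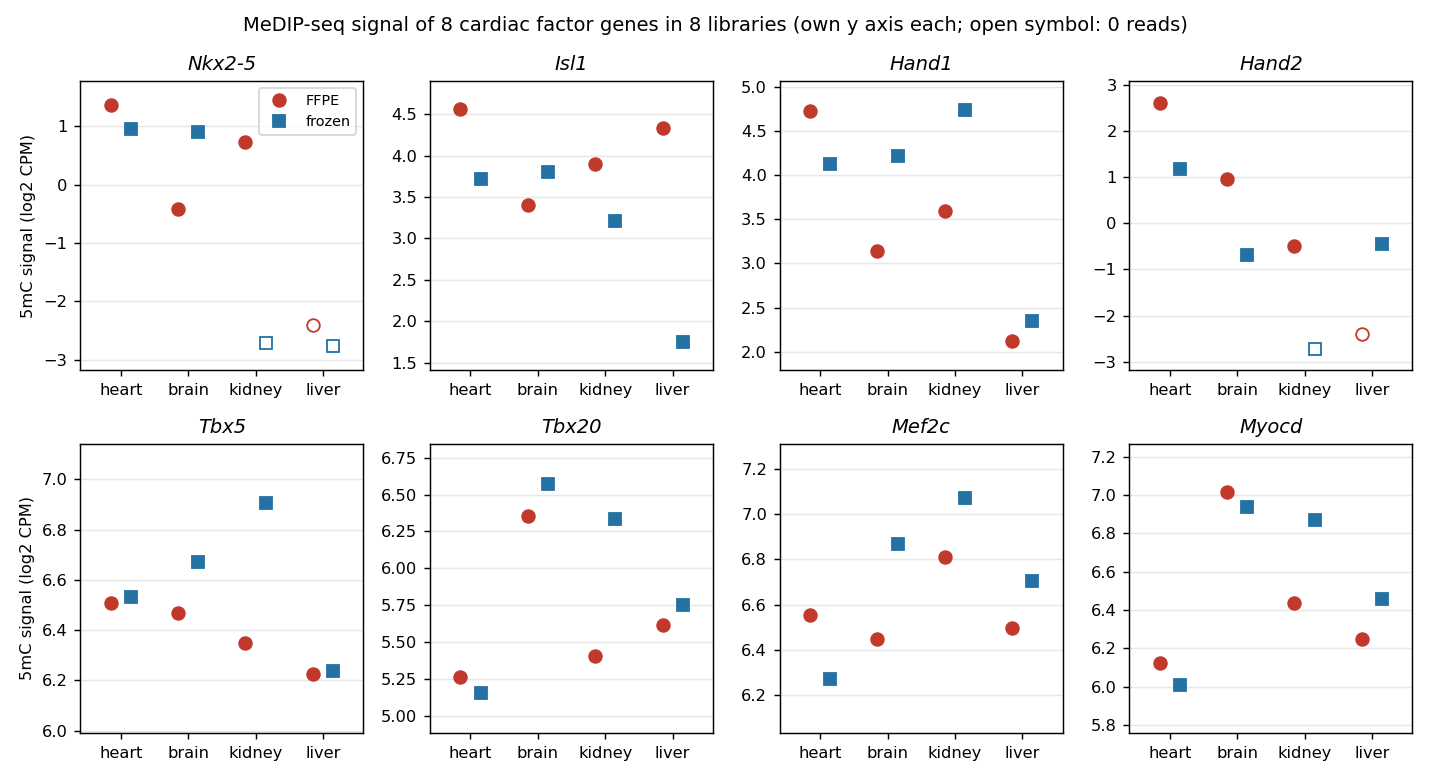
Signal in log2 CPM (y axis, its own range for each gene) of the 8 genes in heart, brain, kidney and liver (x axis), 1 point per library, with red circles for FFPE tissue, blue squares for frozen tissue and open symbols for 0 reads. Tbx20 and Myocd are highest in both brain libraries and lowest in both heart libraries, Hand1 is lowest in both liver libraries, and the few Nkx2-5 and Hand2 reads are most frequent in heart.

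Among the homeodomain genes, Nkx2-5, which specifies and maintains heart muscle cells, had very few reads, most of them in heart. It had 6 and 5 reads in FFPE and frozen heart (2.38 and 1.75 CPM), 2 and 4 in brain (0.597 and 1.67 CPM), 3 and 0 in kidney, and 0 and 0 in liver. Both heart libraries were above the other 6, though by 1 or 2 reads over frozen brain. With both libraries of an organ pooled, the exact Poisson 95% interval of the level was 1.02 to 3.67 CPM in heart, 0.383 to 2.27 CPM in brain, 0.114 to 1.62 CPM in kidney and at most 0.608 CPM in liver. The heart difference from the mean of the other organs was 2.27 ± 1.17 on the log2 scale (SE, 95% interval -0.20 to 4.74, limma adjusted p = 0.389), and the liver difference was -2.72 ± 1.17 (adjusted p = 0.116). Such fitted values rest on the 0.5 that the authors added to each count. The Poisson intervals cover counting error only.

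Isl1, the LIM-homeodomain protein of second heart field progenitors and of motor neurons, showed no organ difference beyond the disagreement between preservations. It had 23.4 and 13.0 CPM in FFPE and frozen heart, 10.5 and 13.8 CPM in brain, 14.6 and 9.11 CPM in kidney, and 20.1 and 3.21 CPM in liver. The liver libraries lay farthest apart, at 53 reads in FFPE and 11 reads in frozen tissue, and the ranges of all 4 organs overlap. The test of any organ difference gave a limma adjusted p of 0.465. The order of the organ means was heart, brain, kidney and liver, and no step between neighbours passed the test (adjusted p = 0.681, 0.962 and 0.698). Across the 4 organs the FFPE value averaged 0.93 ± 0.41 above the frozen value on the log2 scale, with an unadjusted p of 0.039 and an adjusted p of 0.435.

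Among the basic helix-loop-helix genes, Hand1, which acts in the left ventricle, extraembryonic tissue and limb of the mouse embryo, was lower in liver than the mean of the other organs. It had 4.17 and 4.97 CPM in FFPE and frozen liver, against 26.2 and 17.2 CPM in heart, 8.66 and 18.3 CPM in brain, and 11.8 and 26.4 CPM in kidney. Both liver libraries (11 and 17 reads) were below the other 6 (25 to 87 reads). The liver difference was -1.85 ± 0.41 on the log2 scale, 3.6-fold lower than the mean of the other 3 organs (limma, Benjamini-Hochberg adjusted p = 0.00546), and it was -1.69 in FFPE and -2.0 in frozen tissue alone. The call was lost without the FFPE liver library (adjusted p = 0.0548), without the frozen liver library (0.0933) and without a trend in the variance model (0.0867). By pairs, Hand1 was 4.54-fold higher in heart than in liver (2.18 ± 0.51, adjusted p = 0.0101) and 2.71-fold higher in brain than in liver (1.44 ± 0.51, adjusted p = 0.0442), directions in which 3.29% and 12.7% of all tested genes were called. Kidney over liver was 3.79-fold (1.92 ± 0.51) and missed the threshold (adjusted p = 0.06), passing in 3 of 15 alternatives. The heart-over-liver call was lost under quantile normalization (adjusted p = 0.0521), without the variance trend (0.136) and without FFPE heart (0.303), FFPE liver (0.0566) or frozen liver (0.0829), and the brain-over-liver call was lost in 11 of 15 alternatives, among them leaving out any 1 heart, brain or liver library (adjusted p 0.0128 to 0.375 over all 15). The order was heart, kidney, brain and liver, and the first 2 steps did not pass the test.

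Hand2, the paralog that acts in the right ventricle, limb and sympathetic neurons, had most of its few reads in heart. It had 15 and 6 reads in FFPE and frozen heart (5.96 and 2.11 CPM), 6 and 1 in brain (1.79 and 0.417 CPM), 1 and 0 in kidney, and 0 and 2 in liver. Both heart libraries were above the other 6, although frozen heart and FFPE brain had the same 6 reads. Pooled over an organ, the exact Poisson 95% interval was 2.42 to 5.98 CPM in heart, 0.490 to 2.51 CPM in brain, 0.00468 to 1.03 CPM in kidney and 0.0399 to 1.19 CPM in liver. The heart interval lay above those of kidney and liver and overlapped that of brain. These intervals cover counting error only and leave out the spread between libraries. Frozen heart alone, at 2.11 CPM, lay below the lower limit of the pooled heart interval. Over libraries, the heart difference was 2.87 ± 1.11 on the log2 scale (95% interval 0.52 to 5.22, limma unadjusted p = 0.0198, adjusted p = 0.23), with 3.27 in FFPE and 2.47 in frozen tissue. Nkx2-5 reached 1 CPM in 4 of the 8 libraries (both heart libraries, frozen brain and FFPE kidney). Hand2 reached it in 3 (both heart libraries and FFPE brain) and would not have passed the filter without heart, where it is high.

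Among the T-box genes, Tbx20, a repressor and activator needed for chamber growth and adult heart muscle, had its highest signal in brain and its lowest in heart. It had 81.8 and 95 CPM in FFPE and frozen brain, against 38.1 and 35.5 CPM in heart, 42.1 and 80.5 CPM in kidney, and 48.9 and 53.7 CPM in liver. Both brain libraries were above the other 6, and both heart libraries were below the other 6. The brain difference was 0.88 ± 0.20 on the log2 scale, 1.84-fold higher than the mean of the others (limma adjusted p = 0.00665), with 0.93 in FFPE and 0.83 in frozen tissue. Without the FFPE brain library the adjusted p was 0.103, without the frozen brain library 0.116, and without the variance trend 0.114.

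The heart difference of Tbx20 was -0.80 ± 0.20 (95% interval -1.23 to -0.37), 1.74-fold lower, and stood at the edge of the threshold with a limma adjusted p of 0.0509. It passed in 8 of 16 alternatives (adjusted p 0.00124 to 0.881 over all of them), among them quantile normalization (0.0346), centring of libraries (0.0239) and leaving out either kidney library (0.00124 without FFPE kidney and 0.0332 without frozen kidney). Without the frozen heart library it was -0.53, and without the FFPE heart library -1.06. Heart set directly against brain was 2.39-fold lower (-1.26 ± 0.25, adjusted p = 0.0214), a direction called for 0.52% of all tested genes. The call was lost without any 1 of the heart and brain libraries (adjusted p = 0.17 without FFPE heart, 0.344 without frozen heart, 0.117 without FFPE brain and 0.21 without frozen brain) and without the variance trend (0.309). Brain over liver was 0.78 ± 0.25 (adjusted p = 0.0266), lost with centred libraries (0.125), without the variance trend (0.159) and without FFPE brain (0.155), frozen brain (0.127), FFPE liver (0.0834) or frozen liver (0.185). The order was brain, kidney, liver and heart, and no step between neighbours passed the test (adjusted p = 0.105, 0.746 and 0.233).

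Tbx5, which drives left ventricle, atrial and forelimb programmes, differed least between libraries. It had 90.9 and 92.3 CPM in FFPE and frozen heart, 88.4 and 102 CPM in brain, 81.3 and 120 CPM in kidney, and 74.6 and 75.4 CPM in liver. Both liver libraries were below the other 6, and the 2 kidney libraries were the most unlike. The heart difference was 0.04 ± 0.16 on the log2 scale, with a 95% interval of -0.29 to 0.38 (limma adjusted p = 0.932). The liver difference was -0.34 ± 0.16 (95% interval -0.68 to -0.01, unadjusted p = 0.0469, adjusted p = 0.147). It passed under quantile normalization (-0.63, adjusted p = 0.0128) and without FFPE kidney (-0.42, adjusted p = 0.036). The order was kidney, brain, heart and liver, with no step between neighbours past the test.

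Myocd, the serum response factor coactivator that switches on smooth and heart muscle genes, had the same order of organs as Tbx20. It had 129 and 122 CPM in FFPE and frozen brain, against 69.5 and 64.2 CPM in heart, 86.5 and 117 CPM in kidney, and 75.8 and 87.6 CPM in liver. Again both brain libraries were above the other 6 and both heart libraries below them. The brain difference was 0.62 ± 0.16 on the log2 scale, 1.54-fold higher (limma adjusted p = 0.012); the adjusted p was 0.214 without FFPE brain, 0.103 without frozen brain and 0.131 without the variance trend. The heart difference was -0.59 ± 0.16 (95% interval -0.93 to -0.26, adjusted p = 0.0653), which passed in 6 of 16 alternatives (adjusted p 0.00694 to 0.875 over all of them), among them leaving out FFPE kidney (0.00694) or frozen kidney (0.0475). Heart against brain was 1.88-fold lower (-0.91 ± 0.19, adjusted p = 0.0296), a call kept in 8 of 15 alternatives and lost without FFPE heart (0.234), frozen heart (0.36), FFPE brain (0.206), frozen brain (0.195), FFPE liver (0.0511) or frozen liver (0.0532) and without the variance trend (0.315). Brain over liver was 0.62 ± 0.19 (adjusted p = 0.0244), lost under the same alternatives as for Tbx20 (adjusted p = 0.171 with centred libraries, 0.152 without the variance trend, 0.216 and 0.0743 without FFPE and frozen brain, 0.16 and 0.089 without FFPE and frozen liver). No step between neighbours in that order passed the test. Over the 8 libraries, Myocd and Tbx20 correlated at r = 0.956, the highest of the 28 pairs among the 8 genes. This is a description, and the libraries they share set part of it.

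Mef2c, the activator of muscle genes that also acts in neurons, vessels and blood cells, had 93.7 and 77.2 CPM in FFPE and frozen heart, 87.2 and 117 CPM in brain, 112 and 134 CPM in kidney, and 90.2 and 104 CPM in liver. Frozen heart was the lowest library, and FFPE heart lay inside the range of brain and liver. The heart difference was -0.32 ± 0.16 on the log2 scale (95% interval -0.66 to 0.02, limma adjusted p = 0.374), with -0.03 in FFPE and -0.61 in frozen tissue. The kidney difference was 0.38 ± 0.16 (unadjusted p = 0.0292, adjusted p = 0.212). The order was kidney, brain, liver and heart, and no step between neighbours passed the test.

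**Figure D3:**
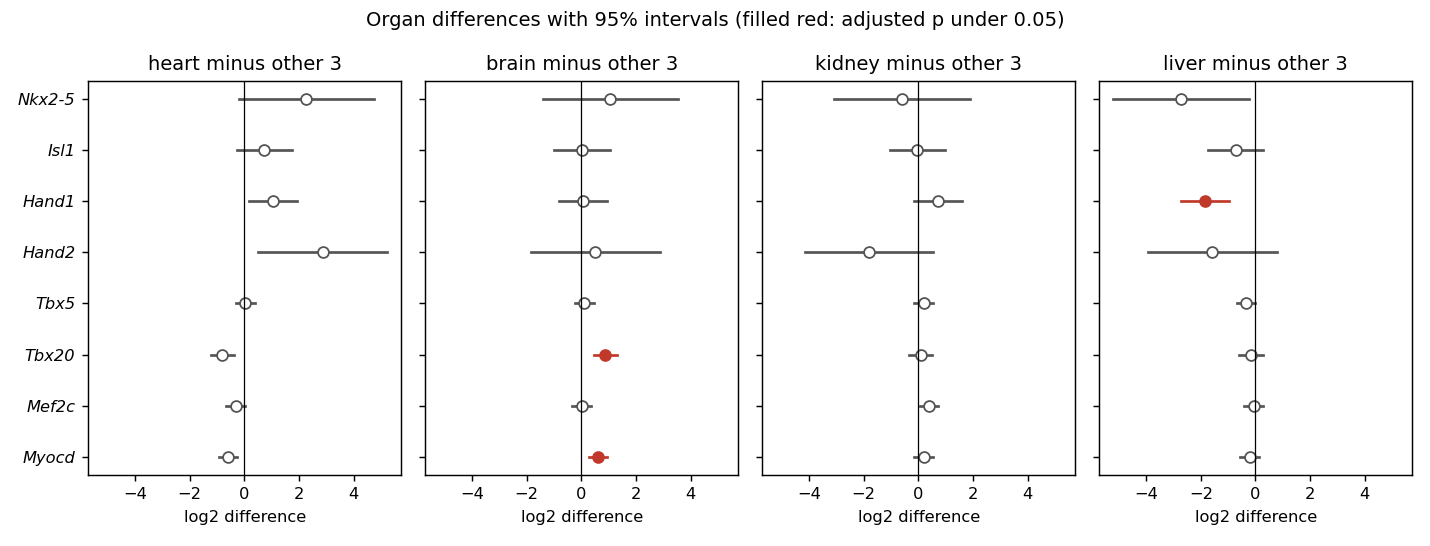
Log2 difference of each organ from the mean of the other 3 (x axis) for the 8 genes (rows), with 95% intervals from the limma fit over 8 libraries. Filled red points passed an adjusted p of 0.05, which are Tbx20 and Myocd in brain and Hand1 in liver; intervals of Nkx2-5 and Hand2, which had 0 to 15 reads per library, are the widest.

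Counted over the 8 genes, heart gave 0 calls in either direction, where 2.14% of all tested genes were called (limma). An unadjusted p under 0.05 was found for 4 of the 8 genes and 3804 of all. With voom weights or array quality weights 2 genes, Tbx20 and Myocd, were called lower. Those 2 calls come from other fits, so they are not read against the 2.14% of the main fit. Without a group overlap, Nkx2-5 and Hand2 were higher in heart than in the other 6 libraries and Tbx20 and Myocd lower, where 4.78% and 3.47% of all tested genes were. Hand2 passed the filter only with its heart libraries, and it is among the 4 genes with an unadjusted p under 0.05. Neither that p nor its place among the higher genes is read against the counts of all tested genes. Brain gave 2 calls, both higher, where 21.4% of all tested genes were called and 8.61% were called higher; both members were without overlap, as were 16.5% of all tested genes in that direction. Liver gave 1 call, lower, where 19.2% were called and 7.42% were called lower; 2 members (Tbx5 and Hand1) were lower without overlap, against 10.3% of all tested genes. Kidney gave 0 calls, where 1.46% of all tested genes were called, and 0 of 8 with voom weights. In kidney 1 of the 8 genes and 4843 of all had an unadjusted p under 0.05. A difference between the organs of any kind passed for 3 of 8 genes (Tbx20, Hand1 and Myocd), against 25.1% of all tested genes. Since every organ enters the mean for the other organs, the brain, heart and liver differences of a gene are not independent.

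The signs of the differences varied with the organ and the scaling. The share of all tested genes with each sign was not counted, so the sign counts are not read as particular to these genes. In liver the log2 difference was below 0 for 8 of 8 genes, with a median of -0.53 beside -0.10 over all tested genes. Some of these values were small, with Mef2c at -0.07 in liver and at 0.008 in brain. With libraries centred on their medians 6 of 8 were below 0 (Tbx20 and Mef2c turned), and with quantile normalization 8 of 8. In brain it was above 0 for 8 of 8 (median 0.31, beside 0.11 over all), but for 4 of 8 under either scaling: Tbx20, Myocd, Nkx2-5 and Hand2 with centring, and Tbx5, Tbx20, Mef2c and Myocd with quantile normalization. Leaving out 1 library gave 4 to 8 above 0, with the 4 (Tbx5, Tbx20, Hand2 and Myocd) without frozen brain. Over all tested genes the median brain difference became -0.04 with centring, and the median liver difference 0.10. In heart 5 of 8 were above 0 and 3 below, with a median of 0.39. Hand2 is among the 5 and passed the filter only with its heart libraries. The heart count and median are therefore not read against all tested genes. Tbx5 turned with centring and without FFPE heart or FFPE kidney. An organ is a mixture of cell types, so a shift in cell makeup and a change of 5mC within cells cannot be told apart. Leukocyte genes were higher in brain for 3 of 7 and lower in liver for 2 of 7, with 281 to 307 CPM summed over the list in brain, 121 to 130 CPM in liver and 128 to 238 CPM in heart and kidney, and none of them was at 0 reads; their part in the results was not tested. Endothelial genes were lower in heart for 2 of 7 (506 to 543 CPM summed in heart, 644 to 779 CPM in the other organs), fibroblast genes were lower in heart for 0 of 7 and in liver for 1 of 7, with 373 to 410 CPM summed in heart and 379 to 485 CPM in the other organs and 1 of the 7 at 0 reads in some library. The part of endothelial and fibroblast genes was not tested either. Beside the counts of these 3 lists, 8.61% of all tested genes were called higher in brain, 7.42% lower in liver and 1.97% lower in heart.

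FFPE and frozen tissue differed in no consistent way on these genes. Over the 4 organs, FFPE minus frozen gave 0 calls among the 8 genes, against 1.35% of all tested genes (limma; 1 of the 8 genes and 2773 of all at an unadjusted p under 0.05, and 0 of 8 with voom weights). The median difference was -0.13 on the log2 scale, beside 0.02 over all genes, and ranged from -0.46 for Hand1 to 0.93 for Isl1. In heart 7 of 8 genes were higher in FFPE tissue, by a median of 0.35, with Tbx5 at -0.02. In brain 2 of 8 were higher (median -0.31), in kidney 3 of 8 (median -0.34) and in liver 2 of 8 (median -0.17). In kidney the difference was -0.93 for Tbx20 (89 reads in FFPE and 265 in frozen tissue), -1.14 for Hand1 and -0.56 for Tbx5, while Nkx2-5 and Hand2 had 3 and 1 reads in FFPE kidney and 0 in frozen kidney. Each of these within-organ values compares 1 library with 1 and has no test. The share of all tested genes higher in FFPE tissue within each organ was not counted.

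The nearest tested genes on each side were set beside the 3 genes that passed the test. Of all tested genes, 8.61% were called higher and 12.8% lower in brain, and 7.42% lower in liver. A call on a neighbour is therefore not read as a pattern shared with the member. Below Tbx20 on chromosome 9 lies Dpy19l2, whose product is needed to shape the sperm head, 24355 bases away. Dpy19l2 was called higher in brain (limma log2 difference 1.52 ± 0.40, adjusted p = 0.0144) and lower in liver (-1.25 ± 0.40, adjusted p = 0.0383), and its heart value was 0.09 ± 0.40. On the other side Herpud2, 333823 bases away, was at -0.11 ± 0.32 in brain. Beside Myocd the direction differed. Arhgap44, 10636 bases away, was lower in brain (-0.69 ± 0.17, adjusted p = 0.00892) where Myocd was higher, and Gm12295, 7665 bases away on the other side, was at 0.49 ± 0.21 (adjusted p = 0.0993). Beside Hand1, which was lower in liver, Sap30l at 18098 bases and Larp1 at 141271 bases had liver values of 0.46 ± 0.30 and -0.31 ± 0.17, and neither passed the test (adjusted p = 0.311 and 0.21).

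**Figure D4:**
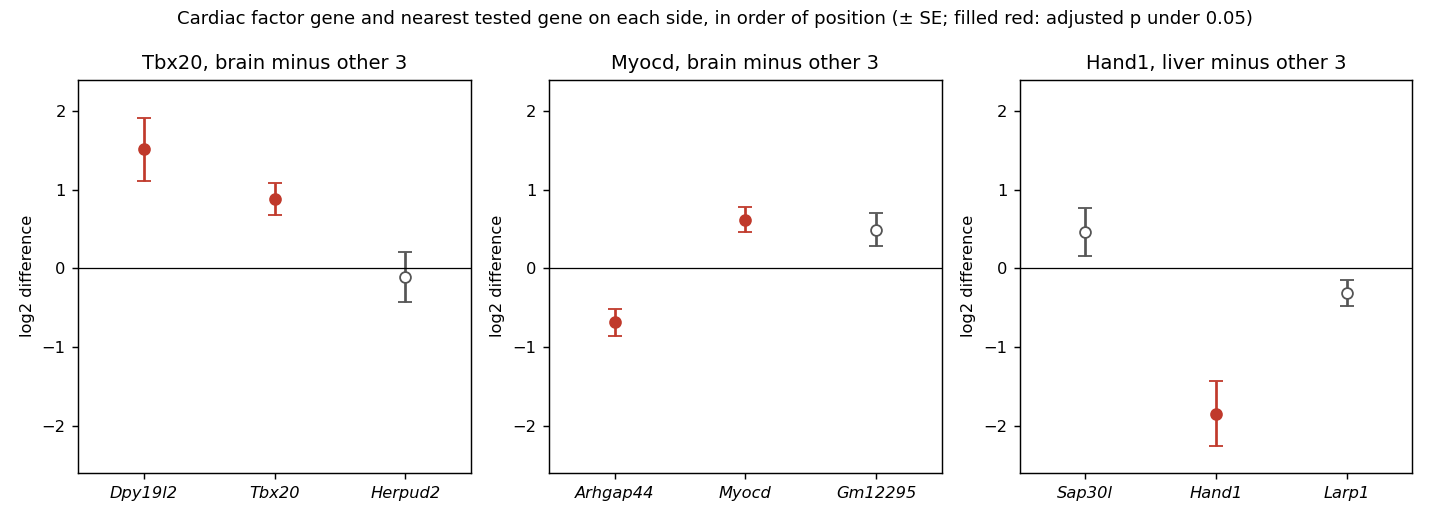
Log2 difference (y axis, ± SE) of Tbx20 and Myocd in brain and of Hand1 in liver, each against the mean of the other 3 organs, with the nearest tested gene on either side in order of position (x axis). Dpy19l2 is higher in brain like Tbx20, Arhgap44 is lower in brain beside the higher Myocd, and the neighbours of Hand1 did not pass the test in liver.

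The other neighbours passed the test in no organ except Parp8. Parp8, a poly(ADP-ribose) polymerase family gene 541154 bases from Isl1, was lower in brain (-0.69 ± 0.18, limma adjusted p = 0.0134), where Isl1 was at 0.03 ± 0.48. Arhgap44 also passed in kidney (0.74 ± 0.17, limma adjusted p = 0.0396). Of all tested genes, 12.8% were called lower in brain, and 1.46% were called in kidney in either direction. The predicted gene Gm5563 lies inside Tbx5, had 0 to 13 reads per library and was at -3.40 ± 0.98 in kidney (adjusted p = 0.0876). The sources used here do not say how reads in that overlap were counted. Bnip1 and Kifc5b beside Nkx2-5 had heart values of 0.08 ± 0.27 and -0.27 ± 0.17, and Fbxo8 and Scrg1 beside Hand2 had -0.23 ± 0.51 and 0.73 ± 0.68. The 2 genes next to Nkx2-5 thus had 43 to 377 reads per library, where Nkx2-5 had 0 to 6.

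The genes whose pattern over the 8 libraries was most like each member were sought among 11732 named genes of at least median signal, by Pearson's r of log2 CPM. For Tbx20 they were Asap3 (r = 0.984) and Ebf2 (0.964), for Myocd Cyp7b1 (0.966) and Tcerg1l (0.965), for Hand1 Casp8ap2 (0.988) and Abcd2 (0.976), and for Tbx5 Krt24 (0.988) and Sox11 (0.954). For Mef2c they were Kcnh7 (0.938) and Ryr2 (0.931), the calcium release channel gene of heart muscle. For Isl1 they were Zfp697 (0.911) and Upp2 (0.910), for Nkx2-5 Fam71f1 (0.983) and H2-DMa (0.960), and for Hand2 Me1 (0.970) and Rusf1 (0.955). With 8 points and so many genes searched, values of this size describe the libraries and carry no test.

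Of 33 heart muscle genes, many of them targets of these factors, 7 were lower and 0 higher in heart (limma, adjusted over all tested genes). Their median was -0.42 beside 0.07 over all tested genes, of which 1.97% were called lower. The list also holds some genes of smooth muscle. Xirp1, an intercalated disc protein, was at -0.86 ± 0.14 (adjusted p = 0.00666), Ankrd1, a stress-induced cardiac repeat protein, at -1.19 ± 0.20 (0.00711), Myh6, the adult ventricular myosin of the mouse, at -0.78 ± 0.13 (0.00717), and Myh7, the fetal one, at -0.73 ± 0.14 (0.0151). The count for muscle genes was 0 without either heart library, 0 without the variance trend, and 4 to 10 without 1 of the other libraries (4 without FFPE liver). Tbx20, Myocd and Mef2c had differences of the same sign that missed the threshold. Nkx2-5, Isl1, Hand1, Hand2 and Tbx5 had values of the opposite sign, none past the test.

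Of 33 other heart transcription factors and cofactors, 3 were lower and 0 higher in heart, with a median of 0.05, beside the same 1.97% of all tested genes called lower. They were Nfatc1, a valve and endocardium factor (-0.62 ± 0.14, limma adjusted p = 0.027), Gata4, a zinc finger partner of Nkx2-5 and Tbx5 (-1.01 ± 0.24, 0.0388), and Sall4, a stem cell factor (-0.56 ± 0.14, 0.0488). The count ranged from 0 to 7 when 1 library was left out: it was 0 without either heart library or FFPE liver, 1 without frozen brain or frozen liver, and 7 without FFPE kidney; 1 or 2 factors were higher without FFPE or frozen kidney. Of 15 signalling genes of the heart fields, 2 were lower and 0 higher (1.97% of all tested genes lower): Dll4, a Notch ligand of vessels (-1.49 ± 0.26, adjusted p = 0.00857), and Wnt5a, a Wnt ligand of the second heart field (-0.76 ± 0.17, 0.0269), both lost without either heart library, with 1 left without frozen brain or FFPE liver and 3 called without FFPE or frozen kidney. Of 29 tested relatives in the same protein families (Nkx2, T-box, LIM-homeodomain, Twist, Mef2 and myocardin-related genes), 0 were called in heart while 8 were higher and 5 lower in brain and 2 higher and 8 lower in liver. Of all tested genes, 8.61% were called higher and 12.8% lower in brain, and 11.8% higher and 7.42% lower in liver. With quantile normalization or voom weights 1 relative was higher in heart, and with array quality weights or without both kidney libraries 2 were. Some of the relatives are also among the 33 other heart factors, so these lists are not separate.

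**Figure D5:**
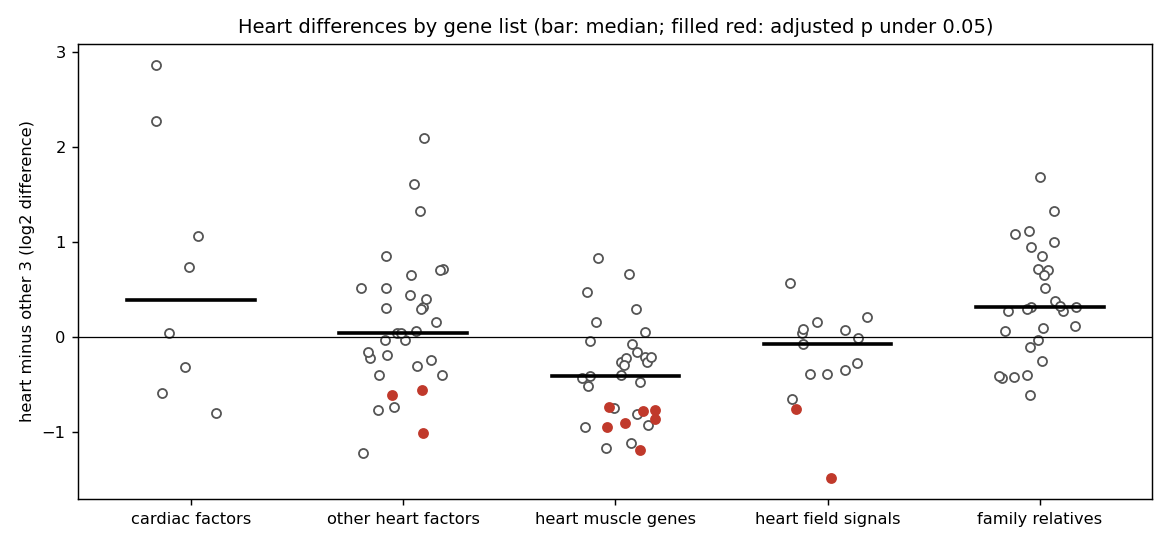
Log2 difference of heart from the mean of the other 3 organs (y axis) for the 8 cardiac factor genes and 4 lists of related genes (x axis), 1 point per gene, with a black bar at the median and red points for an adjusted p under 0.05. Called genes lie below 0 in 3 of the lists, and none of the 8 cardiac factor genes was called. Some genes are in more than 1 list.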

How the data were processed

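The labels list 32 samples in 16 groups of 2 (16 with the 5mC antibody and 16 Input), and replicate numbers go with 2 library dates. The submitters' processing notes name mm10, Bowtie2, featureCounts and limma. The sources used here give no version, counted feature, strand setting or handling of reads with several matches. The authors deposited log2 values of reads scaled to library size (log2 CPM) for 27179 genes in 8 columns. All values stepped back to whole reads (100% within a tolerance of 1e-04, with 0.5 added to each count). Recovered reads gave the depth, CPM, floors and 2 alternatives.

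Organ plus preservation was fitted with limma 3.58.1 in R 4.3.3 on the deposited log2 values (3 residual degrees of freedom, 13.1 prior, trended variance), over the 25982 genes that reached 1 CPM in 2 or more libraries (1197 removed). P-values are two-sided, Benjamini-Hochberg adjusted over all tested genes, threshold 0.05. With 1 column per group, the residual measures disagreement between preservations across organs, and p-values measure only the spread between these libraries, which nothing says came from separate animals. The fit was tested on simulated data. Genes were placed by Entrez ID in RefSeq GRCm38.p6.

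The 8 genes, the lists and the tests were chosen with earlier results of these data known. Besides the 8 genes, the text names the nearest tested gene on each side, the 2 most correlated genes per member, and up to 4 genes per list with the smallest p among those called in heart. Both kidney libraries were also left out together, an alternative chosen after seeing the data. Each gene list (heart factors, heart muscle genes, signals, relatives, hepatocyte, neuron, tubule, endothelium, fibroblast, leukocyte) is reported by counts.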

Additional observations from a re-analysis of the deposited data

Results flagged for a closer look

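Isl1 in brain, set against the other organs, went opposite ways in the 2 preservations. Against the mean of the other 3 organs of the same preservation, FFPE brain was at -0.86 on the log2 scale and lowest of the 4 organs (10.5 CPM). Frozen brain was at 0.91 and highest (13.8 CPM, beside 13.0 CPM in frozen heart). FFPE minus frozen was -0.40 in brain itself, and 2.59 in liver, 0.84 in heart and 0.68 in kidney. The opposite signs thus rest largely on the other organs, liver most. The FFPE effect minus the frozen effect was -1.77. With 1 library per organ and preservation this difference was not tested. The brain levels rest on 35 reads in FFPE and 33 reads in frozen tissue.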

How the results depend on the processing

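Without the variance trend, 0 genes were called in heart, brain, kidney, liver or for any organ difference (39 for FFPE minus frozen), so the calls on Tbx20, Myocd and Hand1 rest on that trend. When 1 library was left out, the brain calls among the 8 genes numbered 0 to 2 and the liver calls 0 to 2; both brain calls were lost without either brain library, and the Hand1 liver call without either liver library. Liver calls among the 8 genes were 3 with quantile normalization (Tbx5, Hand1, Myocd) and 2 without both kidney libraries (Nkx2-5, Hand1). Heart calls among the 8 genes numbered 0 to 2 lower over the libraries left out, 2 with centred libraries, array quality weights, voom weights or no kidney libraries, and 1 with quantile normalization or 2 reads added (Tbx20); without both kidney libraries 1 was higher (Hand1). With 1 library left out, the any-organ count of the 8 genes ranged from 1 to 4, with Hand1 the 1 left without frozen heart or FFPE brain. No called difference of the 8 genes turned in direction.

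All genes called in heart numbered 555, with 888 under centring, 1461 with array quality weights, 1286 without both kidney libraries and 3 to 2097 with 1 library left out. The share of calls that was higher in heart was 7.57%, and 32.6% with quantile normalization; in brain it was 40.2% and 24.7% with centring, and in liver 61.3%, 50.6% with quantile normalization and 79.6% with centring. Brain calls numbered 5571 (759 to 9141). Kidney calls numbered 380, with 158 unfiltered, 87 with array quality weights, 999 with voom weights and 23 to 3764. Liver calls numbered 4985, with 2618 under quantile normalization, 9361 without both kidney libraries and 1461 to 7255. FFPE minus frozen gave 352, with 584 under array quality weights and 171 to 448. Any organ difference gave 6516, with 10057 under array quality weights and 3027 to 12108. The cause of these shifts was not tested. Of 1536 values of single genes under an alternative, 84 changed sign while uncalled in both fits. No paired analysis was possible because the columns carry no replicate number. Nkx2-5 and Hand2 had 0 to 15 reads per library, and their fitted heart differences did not pass the test at this depth.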
